A study of Mus with 8 samples.

Results

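Cholesterol and fatty acids are built from acetyl-CoA by the enzymes of a pair of linked pathways, and 31 genes of these pathways and of their control were examined in tumours grown in different hosts. The genes were chosen by name: 16 enzymes of the sterol branch, 11 enzymes of the fatty acid branch and 4 regulators. They were found on the array through the RefSeq accession of each probe. All 31 had at least 1 probe, out of 22911 named genes on the array, and 49 probes in all matched a member. All 31 passed the filter on dim probes, as did 16068 genes in total, and every member was well above background on all 8 arrays.

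The tumours grew from Pan02 cells, a mouse pancreatic cancer line, transplanted under the skin of B6 hosts. Wild-type hosts, called Control, gave 4 tumours, and 4 came from Mutant hosts that were Ext1 flox/flox with S100a4-Cre. Ext1 encodes a polymerase of heparan sulfate chains, and S100a4 is active in fibroblasts but also in some other stromal and immune cells, so the deletion need not be limited to fibroblasts. The transplanted cells were the same in both groups and carried no deletion, no group carried the Cre or the floxed alleles alone, tumours were removed 36 to 40 days later, and RNA of each whole tumour was hybridised to 1 array. The labels used here name neither the age nor the sex of the hosts. In RNA of whole tumours, fewer cells of a type and less RNA per cell cannot be told apart.

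In the sterol branch, acetyl-CoA units are joined and reduced to mevalonate, and mevalonate is turned into isoprenoid units. These are condensed to squalene, which is turned into an epoxide, closed into rings and trimmed to cholesterol. In the fatty acid branch, cytosolic acetyl-CoA is carboxylated to malonyl-CoA, polymerised to palmitate, and then elongated and desaturated. Both branches are under sterol regulatory element binding proteins (SREBPs), which the escort protein Scap carries to the Golgi for cleavage when sterols are scarce and which Insig proteins hold back when sterols are plentiful. The Srebf2 product acts mainly on sterol genes and the Srebf1 product mainly on fatty acid genes. Insig1 and Srebf2 are themselves known targets of the pathway.

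Each level is a log2 signal from which the 75th percentile of its array was subtracted. A difference is the Mutant mean minus the Control mean, and levels are compared for 1 gene across tumours, never between genes. Control 4 stood apart from the other tumours: over 16050 genes with a value on all arrays it was the lowest tumour in 35.2% and the highest in 22.4%. Control 3 was the highest in 25.3%. The level of 11 fibroblast markers, given further below, was highest in Control 4 and lowest in Control 3. Of 9 ductal epithelial markers 7 were measured, with the keratins Krt8 and Krt18 among them. Epcam, a defining surface marker of epithelium, was well above background on 0 of 8 arrays, as were the acinar markers Cpa1, Pnlip and Prss2. The 3 acinar markers that were measured differed by 0.59 (Ctrb1), 0.22 (Cela1) and -0.15 (Cel), with 0 passing after adjustment (limma). Differences were below 0 in 6 of 7 ductal markers (median -0.53), with Sox9 at -0.56, Krt8 at -0.53 and Krt18 at -0.47. The groups did not overlap for Sox9 alone of the 7, where they did not overlap in 1.42% of all genes. None of the ductal markers passed limma's test after adjustment, nor did any other gene. The part of these markers in the lipid gene values was not tested.

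No lipid synthesis gene differed between the hosts beyond the spread between tumours. Of 31 members 0 passed limma's test at an adjusted p under 0.05, and 0 did at an unadjusted p under 0.05, where over all genes tested the shares were 0% and 2.91% (467 genes). The groups overlapped in all 31 members, while they did not overlap in 1.42% of all genes. A difference above 0 was seen in 6 members and below 0 in 25, so 19.4% were above 0 beside 52.4% of all genes. This count rests on single tumours, since without Control 3 10 of 16 sterol enzymes and 6 of 11 fatty acid enzymes were above 0, and without Mutant 4 9 and 4 were. The smallest unadjusted p among members was that of Acacb (0.137, limma adjusted p = 1.00).

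**Figure D1:**
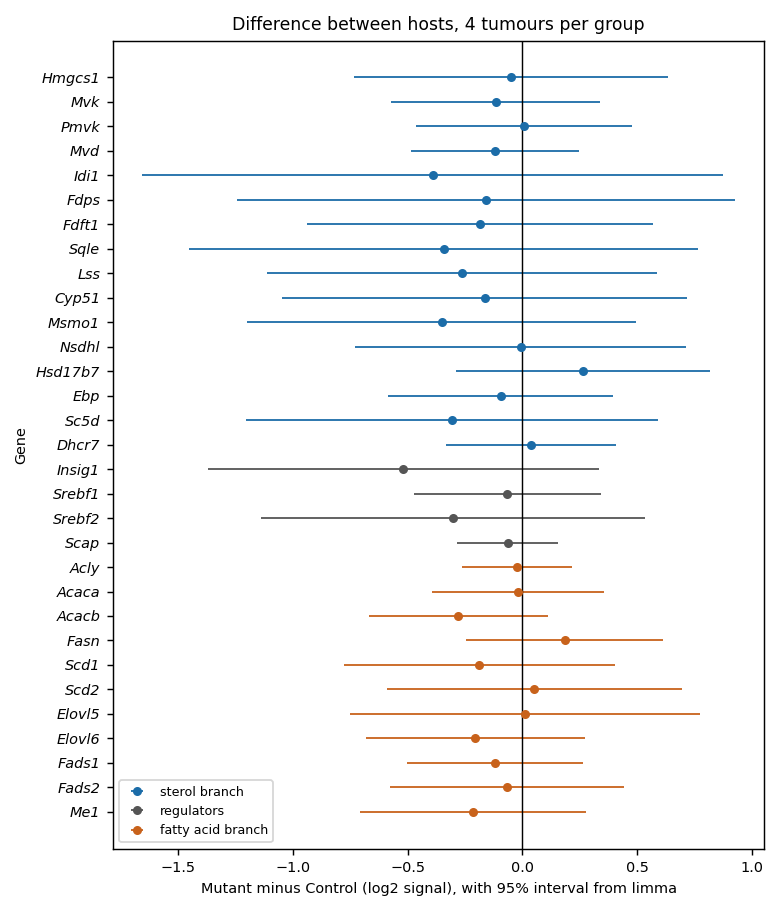
Difference between Mutant and Control tumours for each gene on the log2 scale (horizontal axis), with the 95% interval from limma, 4 tumours per group. Every interval includes 0, and the widest belong to sterol enzymes such as Idi1, whose interval runs from -1.66 to 0.87.

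For 22 of 31 members the 95% interval of the difference lay within a 2-fold change in either direction. The other 9 were Idi1, Fdps, Sqle, Lss, Cyp51, Msmo1, Sc5d, Insig1 and Srebf2, for which a 2-fold difference between the hosts was not excluded by 4 tumours per group. Standard errors ran from 0.09 for Scap to 0.55 for Idi1.

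The mevalonate part of the sterol branch holds 6 members, 5 of them with differences below 0 and a median of -0.12. Hmgcs1, the synthase that makes HMG-CoA, was at 3.34, 3.05, 4.04 and 3.08 in the tumours Control 1 to 4, and at 3.20, 3.70, 3.67 and 2.74 in the tumours Mutant 1 to 4. Control 3 was thus the highest and Mutant 4 the lowest, with the other 6 tumours of both hosts between them. The hosts differed by -0.05 (standard error 0.29, exact two-sided permutation p = 0.914).

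Idi1, the isomerase that supplies the reactive isoprenoid unit, varied most of all members. It was at 0.89, 0.29, 2.04 and 0.79 in Control tumours and at 0.47, 1.32, 1.38 and -0.73 in Mutant tumours. The highest tumour, Control 3, held 6.79-fold more than the lowest, Mutant 4, yet the difference between the hosts was -0.39 with a standard error of 0.55. Fdps, the farnesyl diphosphate synthase, read 3.34, 3.01, 4.69 and 2.84 in Control and 3.10, 3.77, 3.86 and 2.51 in Mutant tumours. Its highest and lowest tumours were again Control 3 and Mutant 4, 4.53-fold apart, and its difference was -0.16 (standard error 0.47). The kinases Mvk and Pmvk and the decarboxylase Mvd spanned less, 1.84-fold, 1.80-fold and 1.51-fold between the highest and the lowest tumour. Their differences were -0.12 for Mvk, 0.01 for Pmvk and -0.12 for Mvd, and that of Pmvk turned below 0 at its other probe and with median centring.

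From squalene onwards 8 of 10 members had differences below 0, with a median of -0.17. Fdft1, the squalene synthase, was at 2.85, 2.54, 3.47 and 2.06 in Control tumours and at 2.42, 2.74, 2.99 and 2.03 in Mutant tumours. Control 3 was the highest and Mutant 4 the lowest, just under Control 4. Sqle, the squalene epoxidase and a rate-limiting step of the later pathway, was at 4.81, 4.57, 5.65 and 3.52 in Control tumours and at 3.86, 4.59, 5.03 and 3.70 in Mutant tumours. Here Control 4 was the lowest tumour and Control 3 the highest, 4.36-fold apart within the same host group. The hosts differed by -0.34 (standard error 0.48, exact two-sided permutation p = 0.600).

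Lss, which closes the epoxide made by Sqle into lanosterol, was at 0.46, 0.05, 1.42 and 0.02 in Control tumours and at 0.01, 0.56, 0.69 and -0.36 in Mutant tumours. The demethylase Cyp51 and the oxidase Msmo1 followed the same order at both ends of the range or close to it: Control 3 was the highest in each, and the lowest was Control 4 for Cyp51 and Mutant 4 for Msmo1. Msmo1 differed by -0.35 with a standard error of 0.37, and its second probe gave -0.36. Nsdhl, a sterol dehydrogenase, had a difference of -0.01, which turned above 0 under quantile normalization, and its tumours spanned 2.49-fold.

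The last steps went less together. Hsd17b7, a ketosteroid reductase, was the sterol enzyme with the largest positive difference, 0.27 with a standard error of 0.24, and its second probe gave 0.31. It was at 0.88, 1.31, 1.62 and 0.65 in Control tumours and at 1.19, 1.66, 1.56 and 1.10 in Mutant tumours, so that Mutant 2 was the highest. Sc5d, a sterol desaturase, was at 2.81, 2.56, 2.96 and 1.25 in Control tumours and at 1.80, 2.16, 2.59 and 1.82 in Mutant tumours. Control 4 was far below the other Control tumours in Sc5d. Without it the difference moved from -0.30 to -0.69 (limma adjusted p = 0.885). The isomerase Ebp was highest in Control 4 and lowest in Mutant 3, 1.62-fold apart, and Dhcr7, the final reductase of its route, spanned only 1.43-fold, the least of the sterol enzymes.

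Of the 16 sterol enzymes 12 were highest in Control 3, or 75%, where this tumour was the highest in 25.3% of all genes. The lowest tumour was Mutant 4 for 9 of them and Control 4 for 5, beside 8.01% and 35.2% of all genes. All 16 were higher in Control 3 than in Mutant 4. The SD within groups was above the median of all genes, 0.27, in 14 of 16 sterol enzymes, and the median over the 16 was 0.50.

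**Figure D2:**
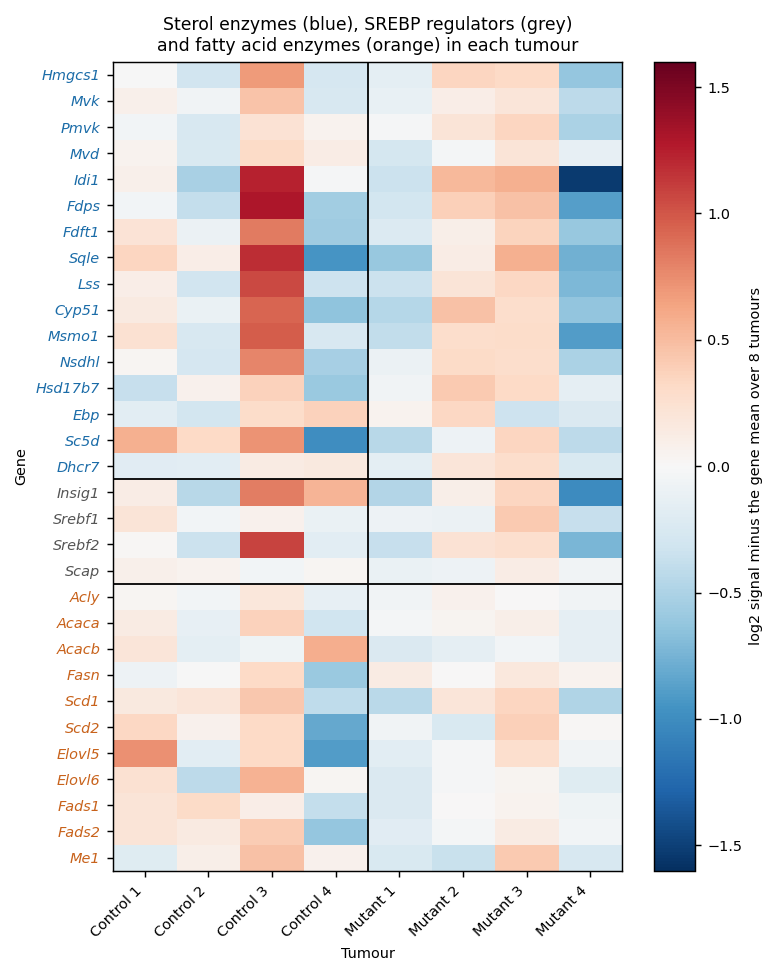
Heat map of the 31 genes (rows, in pathway order) in the 8 tumours (columns). Colour is the log2 signal minus the gene's mean over the tumours, from -1.6 in blue to 1.6 in red. The column of Control 3 is red and that of Mutant 4 blue through most sterol enzymes, while the fatty acid enzymes below are paler and 7 of 11 are lowest in Control 4.

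Among the regulators, Insig1, the retention protein that shuts SREBP transport, had the largest difference of any member. Its levels were -2.33, -2.89, -1.63 and -1.90 in Control tumours and -2.91, -2.35, -2.10 and -3.45 in Mutant tumours. Mutant 4 and, by a small margin, Mutant 1 lay below every Control tumour, while Mutant 2 and Mutant 3 lay among them. The difference was -0.52 with a standard error of 0.37, or 0.698-fold (two-sided exact permutation p = 0.229, limma adjusted p = 1.00).

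Srebf2 was at -0.04, -0.40, 1.03 and -0.22 in Control tumours and at -0.43, 0.17, 0.21 and -0.79 in Mutant tumours. Control 3 was the highest and Mutant 4 the lowest, 3.51-fold apart. Its difference was -0.30 with a standard error of 0.36, and 0.01 without Control 3. Srebf1 spanned 1.73-fold and was highest in Mutant 3. Scap, the escort protein, stayed between 3.07 and 3.29 over all tumours, and its SD within groups was smaller than that of all but 1.54% of genes. All 4 regulators had differences below 0, with a median of -0.18, but without Control 3 that of Srebf2 and without Mutant 4 that of Srebf1 (0.05) was above 0.

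The fatty acid branch was steadier than the sterol branch, with a median SD within groups of 0.31 against 0.50 and a median span of 1.87-fold against 2.59-fold between the highest and lowest tumour. Over all genes the median span was 1.74-fold. Differences were below 0 in 8 of 11 enzymes, with a median of -0.07. The count above 0 was 2 to 4 under the other centring and normalization settings.

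Acly, which splits citrate into cytosolic acetyl-CoA, was at 4.39, 4.31, 4.54 and 4.23 in Control tumours and at 4.30, 4.42, 4.36 and 4.30 in Mutant tumours. The 8 tumours lay within 1.24-fold, and the difference of -0.02 had a 95% interval from -0.26 to 0.21. It turned just above 0 under quantile normalization. Acaca, the cytosolic acetyl-CoA carboxylase, differed by -0.02 (standard error 0.16), and its other 3 probes gave -0.15, -0.10 and -0.07.

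Acacb, the carboxylase isoform at the mitochondrial surface, was at -0.73, -1.07, -0.98 and -0.34 in Control tumours and at -1.15, -1.06, -0.96 and -1.07 in Mutant tumours. Control 4 and Control 1 were the highest, and Mutant tumours lay close together. The difference was -0.28 (standard error 0.17), while its second, dimmer probe gave 0.07.

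Fasn, the synthase that assembles palmitate, was at 4.97, 5.05, 5.37 and 4.47 in Control tumours and at 5.18, 5.07, 5.23 and 5.12 in Mutant tumours. Control 3 and Control 4 bounded the range, and all Mutant tumours lay between them. Its difference, 0.18 with a standard error of 0.19, was the largest positive one of the branch. Me1, the malic enzyme that supplies NADPH, read 3.85, 4.13, 4.51 and 4.10 in Control and 3.80, 3.69, 4.46 and 3.78 in Mutant tumours. Mutant 3 was well above the other Mutant tumours and level with Control 3, and the difference was -0.22 (standard error 0.21).

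Scd1 and Scd2 are stearoyl-CoA desaturases, which make monounsaturated fatty acids. Scd1 was at 1.69, 1.73, 1.97 and 1.13 in Control tumours and at 1.10, 1.73, 1.87 and 1.06 in Mutant tumours. Control 4, Mutant 1 and Mutant 4 formed the low end, and the difference was -0.19 (standard error 0.26). Scd2 was at 6.40, 6.14, 6.39 and 5.25 in Control tumours and at 6.02, 5.82, 6.46 and 6.09 in Mutant tumours. Only Control 4 was low in Scd2, and the difference moved from 0.05 to -0.21 without it.

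Elovl5, an elongase of polyunsaturated fatty acids, ranged from 2.73 in Control 4 to 4.36 in Control 1, so both ends of its 3.10-fold span lay in the Control group. Its difference was 0.01, and -0.29 without Control 4. It also turned below 0 with median centring and at its other probe. Elovl6, the elongase of saturated chains, differed by -0.21 (standard error 0.21). The polyunsaturated desaturases Fads1 and Fads2 differed by -0.12 and -0.07. Control 4 was the lowest tumour in both, and without it they differed by -0.27 and -0.28 (limma adjusted p = 0.885 for each). Control 4 was the lowest tumour in 7 of 11 fatty acid enzymes, or 63.6%, beside 35.2% of all genes.

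Control tumours had the larger SD in 9 of 11 fatty acid enzymes and in 13 of 16 sterol enzymes, close to the 79.7% of all genes in which this was so.

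The branches were compared through a branch level, the mean over members of the log2 signal after each gene was centred on its mean over the 8 tumours. In Control tumours the sterol level was 0.07, -0.17, 0.72 and -0.33, and in Mutant tumours -0.24, 0.24, 0.30 and -0.58. The fatty acid level was 0.18, -0.01, 0.31 and -0.32 in Control tumours and -0.16, -0.04, 0.17 and -0.13 in Mutant tumours. Both levels were highest in Control 3, and Mutant 3 was above 0 in both. They parted in Mutant 4, which was the lowest in the sterol level only, and in Mutant 2, which was above 0 in the sterol level only.

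**Figure D3:**
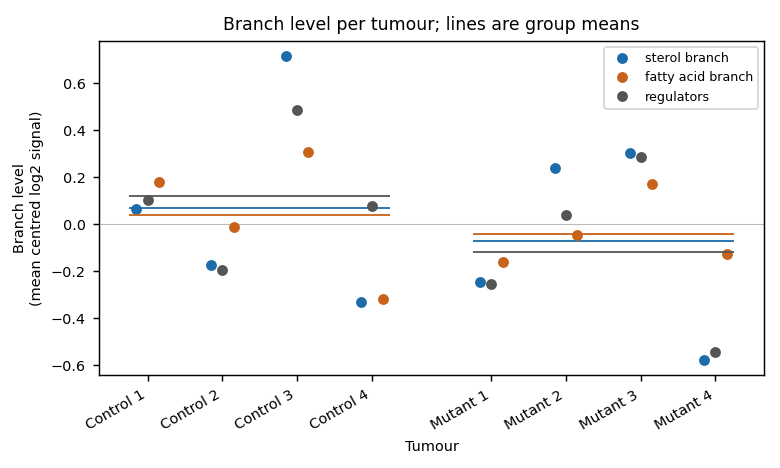
Branch level (vertical axis, mean centred log2 signal) of sterol enzymes, fatty acid enzymes and regulators in each of the 8 tumours, with a line at each group mean. Sterol levels reach from -0.58 to 0.72 and fatty acid levels from -0.32 to 0.31. The tumours of both hosts overlap in each branch.

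The sterol level minus the fatty acid level was 0.03 ± 0.26 (SD, n = 4) in Control tumours and -0.03 ± 0.32 (SD, n = 4) in Mutant tumours, so the gap between the branches differed by less than its spread between tumours. The median difference of the sterol branch, -0.14, lay 0.07 below that of the fatty acid branch. This gap turned to 0.02 without Control 3 and to 0.07 without Mutant 4. Without the same tumours the sterol median was 0.05 and 0.01, and the fatty acid median was 0.03 and -0.06. Without Control 4 the sterol median was -0.30 and the fatty acid median -0.23. The arrays lay on 1 slide in 2 rows that each held 2 tumours per group. Within the first row the sterol and fatty acid medians were 0.11 and -0.25, and within the second row -0.25 and -0.05.

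The transcripts of the SREBP genes were set against the enzymes over the 8 tumours, a comparison chosen after the data were seen. Srebf2 and the sterol enzymes varied together from tumour to tumour. Pearson's r was above 0 for all 16, with a median of 0.91, where the median over 16048 genes was 0.07 and 0.424% of genes reached 0.91. After adjustment over the 54 relations computed, 10 sterol enzymes passed by exact permutation of r and 7 by Spearman's rho. Lss had the highest value (r = 0.99, two-sided exact permutation p = 0.000124, adjusted 0.00335; rho = 0.98, exact permutation p = 0.000397, adjusted 0.00714). Msmo1 was at r = 0.98 and rho = 0.98, Fdps at 0.97 and 0.90, and Hmgcs1 at 0.96 and 0.90. Without Control 3 and Mutant 4, the tumours farthest from the Srebf2 median, r was 0.95 for Lss and Msmo1, 0.89 for Fdps and 0.92 for Hmgcs1. Over all 16 sterol enzymes the median r was then 0.77 in place of 0.91, with Fdft1 at 0.69.

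**Figure D4:**
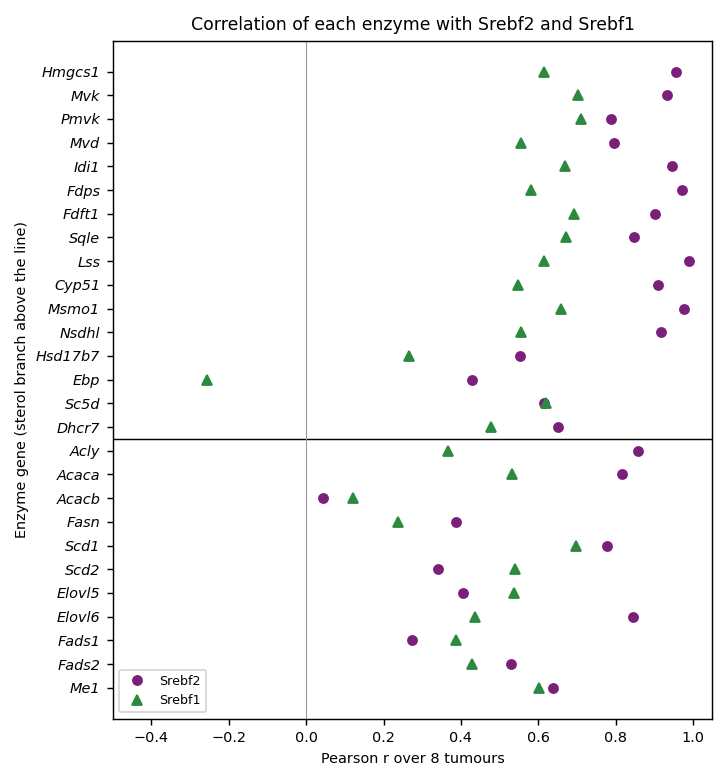
Pearson's r over 8 tumours (horizontal axis) between each of 27 enzymes and Srebf2 (circles) or Srebf1 (triangles). Sterol enzymes from Hmgcs1 to Nsdhl lie between 0.79 and 0.99 for Srebf2, and Ebp is the lowest sterol enzyme for both factors.

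The enzymes of the last steps had the lowest r with Srebf2 in the sterol branch. Ebp had r = 0.43 with Srebf2, and 0.00057 without the same 2 tumours, so no relation was left for it. Hsd17b7 was at r = 0.55, Sc5d at 0.61 and Dhcr7 at 0.65, none of which passed after adjustment (exact permutation, adjusted p = 0.237, 0.195 and 0.164). In the mevalonate part, Pmvk (r = 0.79) and Mvd (r = 0.80) did not pass either (exact permutation, adjusted p = 0.0684 and 0.0518). Sqle passed with all tumours (r = 0.85, exact permutation adjusted p = 0.0387) but was at 0.63 without Control 3 and Mutant 4.

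With the fatty acid enzymes the median r of Srebf2 was 0.53, which 16.1% of all genes reached. By r 2 of 11 passed, Acly (0.86) and Elovl6 (0.84). Without the 2 tumours these were 0.69 and 0.67, and the median was 0.30. Scd1 passed by rank only (rho = 0.93). Fasn was at 0.39 and Acacb at 0.04. Srebf1 passed with 0 of 27 enzymes by r and 0 by rho. Its median r was 0.61 with the sterol enzymes and 0.44 with the fatty acid enzymes, where its highest was Scd1 at 0.70. Whether the correlations of Srebf2 differ between the branches, or from those of Srebf1, was not tested. The values of 1 tumour share an array and its centring, and the slide rows hold too few tumours for a correlation within each.

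**Figure D5:**
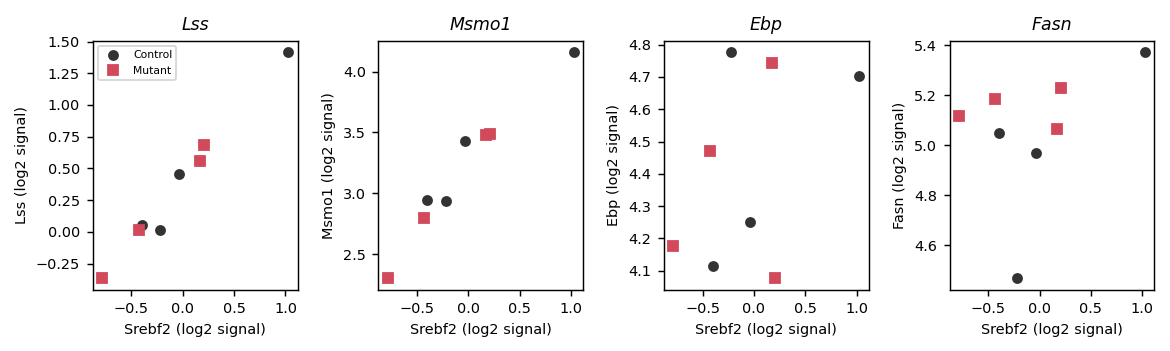
Log2 signal of Lss, Msmo1, Ebp and Fasn (vertical axes) against that of Srebf2 (horizontal axes), 1 point per tumour, circles for Control and squares for Mutant. Lss and Msmo1 fall near a line that both hosts share (r = 0.99 and 0.98), while Ebp and Fasn scatter (r = 0.43 and 0.39).

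Other genes of the pathway did not pass the test between hosts either. Since 0 of all 16068 genes passed, a count of 0 in any list described here is not particular to that list. Of 9 measured sterol pathway neighbours 0 passed (limma) and 5 were below 0, with a median just below 0 (-0.00061). Stard4, a sterol carrier and SREBP target, differed by -0.50 (standard error 0.37), Insig2 by -0.20 and the SREBP protease Mbtps1 by 0.12. Of 22 measured fatty acid neighbours 0 passed and 13 were below 0, with a median of -0.01. Acsl1 differed by 0.18, Acsl3 by -0.17 and Hacd2 by -0.18.

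Genes around the liver X receptors, which sense oxidised sterols and switch on cholesterol export, ranked the 8 tumours in the reverse order of the sterol level. Mutant 1 (0.246) and Control 4 (0.248) were almost level in it. The order was seen among several lists examined, and it was not tested. In Control tumours their list level over 6 genes was -0.06, -0.05, -0.35 and 0.25, and in Mutant tumours 0.25, -0.09, -0.29 and 0.35. Mutant 4 was the highest and Control 3 the lowest, the opposite of the sterol level. Between hosts Nr1h3, the receptor itself, differed by 0.35, the exporter Abcg1 by 0.21 and Nr1h2 by -0.04, and 0 of 6 passed (limma). Macrophages carry much of this receptor, and the level of 11 macrophage markers was lowest in Mutant 3 (-0.50) and Control 3 (-0.32) and highest in Control 4 and Mutant 1 (0.44 each). Between hosts 9 of 11 macrophage markers were above 0 (median 0.10), and 0 passed (limma). Cd14 differed by 0.26, Mertk by 0.30 and Fcgr1 by 0.41, while Mrc1 (-0.25) and Cd68 (-0.08) were below 0. The part of macrophages in these values was not tested.

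Hypoxia and glycolysis genes had differences below 0 in 12 of 12 members (median -0.64), the same direction as 25 of the 31 lipid genes, and 0 passed after adjustment (limma). Ankrd37 differed by -1.29, Bnip3 by -1.23 and Vegfa by -0.61. In Control tumours their list level was 0.10, 0.34, 0.84 and -0.07, and in Mutant tumours -0.52, -0.47, 0.43 and -0.66. Control 3 was the highest and Mutant 4 the lowest, as in the sterol level, but Mutant 2 was low here and above 0 there. Proliferation genes had list levels of 0.23, -0.26, 0.66 and -0.47 in Control tumours and -0.10, 0.09, -0.13 and -0.02 in Mutant tumours. Control 3 was again the highest, while Mutant 4 lay mid-range. Between hosts Mki67 differed by -0.14, Mcm5 by -0.16 and Cdk1 by -0.18. The share of probes well above background was lowest in Control 3 (61.5%) and next lowest in Mutant 3 (62.0%), and highest in Control 4 (67.2%). The part of each in the sterol values was not tested.

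Adipocytes make fatty acids and lie under the skin, and 8 of 12 of their markers were measured. Adipoq, Plin1, Cidec and Adrb3 were well above background on 3 arrays or fewer and were not measured. The 8 measured markers had list levels from -0.82 to 0.08 in Control and from -0.16 to 1.55 in Mutant tumours. Differences were above 0 in 6 of 8, led by Car3 at 3.05, Cfd at 2.86 and Plin4 at 0.95, and 0 passed after adjustment (limma). Lipe (-0.14) and Lep (-0.0029) were below 0, and Car3 was well above background on only 3 Control arrays. The highest adipocyte level was in Mutant 2, where the fatty acid level was -0.04. Of 7 measured markers of epidermis and sebaceous glands 6 were above 0, and their highest list level, 1.42, was in Mutant 3. Krt14 differed by 1.53, Krt10 by 0.20 and Lor by 1.42, while Krt79 differed by -0.12, and 0 passed after adjustment (limma). Lor was well above background on only 2 Control and 2 Mutant arrays. Krt1, a defining marker of epidermis, was so on 0 arrays and was not measured. All 14 skeletal muscle markers were above 0 (median 2.69), with list levels from -3.07 to 0.29 in Control and from -0.87 to 2.77 in Mutant tumours. Acta1 differed by 2.05, Myh4 by 3.99 and Tcap by 2.86, and 0 of 14 passed after adjustment (limma). At an unadjusted p under 0.05 (limma) there were 10 of 14, beside 2.91% of all genes. Ckm was well above background on only 2 Control and 3 Mutant arrays, and Myh1 on only 3 Control arrays. All 11 fibroblast markers were measured. Their list levels were -0.78, -0.24, -1.50 and 2.26 in Control tumours and 0.27, 1.11, -1.02 and -0.10 in Mutant tumours. Differences were above 0 in 5 and below 0 in 6 (median -0.0042), and 0 passed after adjustment (limma). Pdgfrb differed by 0.22, Dpt by 1.08 and Pdgfra by -0.23. The part of fat, muscle, skin and fibroblasts in the lipid gene values was not tested.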

How the data were processed

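Total RNA of 8 tumours was measured on 1-colour Agilent arrays labelled with Cy3. Per the file headers, the intensity of each spot came from Agilent Feature Extraction 10.7.3.1, background-subtracted and detrended within the array, and the deposited values are linear and were not scaled from array to array. The submitters' processing notes name version 9.1. Flags (other) were deposited beside it. The deposited value table equals this intensity within 0.01% for 99.5% of probes on each array, with column medians from 52.8 to 61.8, so its scale is linear, it was not centred, and it holds levels rather than ratios.

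Outlier spots (66 to 117 per array) and control spots were left out, and no spot was saturated. Log2 signals were centred on the 75th percentile of the array. A probe entered if 4 or more of its 8 spots were well above background, and the probe with the highest mean stood for a gene. Of 56605 probes 58.3% were named through accessions in a RefSeq gene table (GRCm38.p6). The array design names an older build, so no coordinates are given. Groups were compared with limma 3.58.1 (R 4.3.3) over 16068 genes, with Benjamini-Hochberg adjustment, and single genes by exact permutation over 70 arrangements (smallest p 0.0286). Tested on simulated data for this comparison over 16068 genes, 47.5% of 2-fold and 79.1% of 4-fold changes were recovered, and 5.3% of calls were false. In each draw 200 genes were changed, and noise was drawn for each gene by itself, so shifts that many genes share were absent. These rates pool genes of every SD, and recovery for the members alone was not examined. The median SD within groups was 0.50 for sterol enzymes and 0.27 for all genes. P-values set the difference between groups against the spread between these tumours, and the number of arrays limits precision.

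Members and lists were chosen with earlier results of these data known, and all members are named. Of each other list described, up to 3 genes of smallest p and dim defining markers are named. Alternatives covered normexp (on median spot signals), quantile and median scaling, 3 filters, the mean of probes, each probe, array weights, a mean-variance trend, the value table, blocks for slide row and for replicate number, and each tumour left out. Correlations (Python 3.11.15) and fits within slide rows were added after the data were seen. A planned motif search was not run, since promoter sequences were not used here.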

Additional observations from a re-analysis of the deposited data

Results flagged for a closer look

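Of 70 sets of 4 tumours examined (each member, branch level and gap in each host), 1 held a tumour far from the others by Dixon's test, while chance flags about 1 in 20. Me1 in Mutant 3 was at 4.46, against 3.80 in the nearest Mutant tumour and 3.69 in the lowest.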

How the results depend on the processing

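No gene and no member passed limma's test at an adjusted p under 0.05 under any of 20 other settings, and the lowest adjusted p of a member was 0.618 (Sc5d, array weights). The sterol median ran from -0.24 (array weights) to -0.13 (quantile) under other settings and from -0.30 to 0.05 with a tumour left out. The fatty acid median ran from -0.22 to -0.06, and from -0.23 to 0.03 with a tumour left out; the regulator median from -0.28 to -0.17, and from -0.33 to -0.07; the gap between branches from -0.07 to -0.02, and from -0.18 to 0.07. Genes at an unadjusted p under 0.05 numbered 467, with 1280 under array weights and 195 to 972 with a tumour left out. Members at that level numbered 1 under array weights, the setting with 1280 genes, and 0 to 3 with a tumour left out. The 3 were seen without Control 4, where 651 genes were at that level. Without Control 2, where 972 genes were, 1 member was. Sterol enzymes above 0 numbered 1 to 10, fatty acid enzymes 1 to 6 and regulators 0 to 1 with a tumour left out, and 1 fatty acid enzyme was above 0 under array weights. With the replicate number as a block, 371 genes were under an unadjusted p of 0.05, 0 passed after adjustment, and the sterol median stayed at -0.14. Tumours of the same number did not pair: their deviations correlated at 0.08, -0.31, 0.05 and -0.31, and none correlated best with its own number.

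Of 638 member values 51 changed sign, and 12 members kept theirs throughout. The cause was not tested. Pmvk was at -0.0036 with normexp, -0.015 with median centring, -0.023 as a mean of probes, -0.038 with array weights and -0.054 at its other probe. Elovl5 was at -0.012 with median centring, -0.097 as a mean of probes, -0.33 with array weights and -0.20 at its other probe. Quantile normalization gave 0.0015 for Nsdhl and 0.0023 for Acly, array weights gave 0.067 for Ebp and -0.19 for Scd2, and the other probe of Acacb gave 0.069. With a tumour left out, ranges that crossed 0 were -0.17 to 0.17 (Hmgcs1), -0.22 to 0.017 (Mvk), -0.10 to 0.18 (Pmvk), -0.65 to 0.054 (Idi1), -0.37 to 0.25 (Fdps), -0.41 to 0.060 (Fdft1), -0.42 to 0.046 (Lss), -0.40 to 0.12 (Cyp51), -0.19 to 0.25 (Nsdhl), -0.22 to 0.011 (Ebp), -0.049 to 0.12 (Dhcr7), -0.22 to 0.047 (Srebf1), -0.47 to 0.010 (Srebf2), -0.070 to 0.033 (Acly), -0.13 to 0.10 (Acaca), -0.21 to 0.17 (Scd2), -0.29 to 0.26 (Elovl5) and -0.28 to 0.057 (Fads2). With 4 arrays per group, changes near 2-fold are often missed.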

Other observations

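Fatty acid oxidation genes were not part of the synthesis pathways but share their substrates. Of 9 measured genes 7 had differences above 0, with a median of 0.02, and 0 passed (limma). Cpt1a, which admits fatty acids to mitochondria, had levels of 2.50 ± 0.20 (SD, n = 4) in Control tumours and 2.91 ± 0.20 (SD, n = 4) in Mutant tumours, which differ by 0.41 (standard error 0.15). Acadl differed by 0.30 and Cpt2 by 0.18. Muscle markers, whose cells burn fatty acids, were higher in the same group, and their part in these values was not tested.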
